A study of Macaca mulatta with 6 samples.

Results

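The nuclear genes of oxidative phosphorylation were examined after chronic morphine in rhesus monkey (Macaca mulatta) libraries labelled as purified cortical neurons, which also held abundant glial transcripts. Members were the genes whose symbol begins with NDUFA, NDUFB, NDUFC, NDUFS, NDUFV, UQCR, ATP5, COX4, COX5, COX6, COX7 or COX8, together with SDHA, SDHB, SDHC, SDHD, CYC1 and CYCS. A mean of at least 10 normalized counts over the libraries was also required. Of 23191 genes in the deposited table, 57 carried such a symbol, and all 57 reached that mean. They comprise 30 genes of complex I and its assembly, 4 of complex II, 5 of complex III, 7 of complex IV and 11 of complex V. CYCS, NDUFV2 and the isoforms COX4I2, COX6A1, COX6A2, COX6B1, COX6B2 and COX7A2L were not analysed here, and neither were the subunits encoded by the mitochondrial genome.

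Oxidative phosphorylation takes place in the inner mitochondrial membrane. Complexes I and II pass electrons from NADH and succinate to ubiquinone, complex III hands them to cytochrome c, and complex IV transfers them to oxygen. Complexes I, III and IV pump protons as they do so, and complex V, the ATP synthase, uses the returning protons to make ATP. Neurons depend heavily on this pathway to restore ion gradients after firing. Most subunits are nuclear products that are imported into the mitochondrion, and complex II has no other kind.

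Polyadenylated RNA was sequenced in 3 libraries from morphine-treated and 3 from saline-treated males aged 3 to 4 years. Morphine, an agonist of the mu opioid receptor, was given under the skin 3 times daily over 90 days, starting at 3 mg/kg and reaching 15 mg/kg from day 29. Control animals received saline on the same schedule. The protocol names 4 animals, 2 in each group, and the description labels carry a single animal code for each group, so libraries of a group share an animal. The p-values therefore measure only the spread between these libraries, and treatment cannot be told apart from differences between animals. How the neurons were purified was not stated.

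Levels are normalized counts, that is, reads divided by a size factor for each library. Recovered depth was between 31238653 and 36345095 reads per library, and the 57 genes took between 0.869% and 0.918% of them. The markers go against a purely neuronal sample: transcripts of astrocytes and oligodendrocytes were abundant in all libraries beside those of neurons. Of 14 pan-neuronal markers 3 rose and 7 fell, and their summed level was 288371 to 299220 in saline and 233175 to 237323 in morphine libraries. Of 11 astrocyte markers 2 rose and 6 fell, with sums of 316304 to 321656 in saline and 265549 to 268414 in morphine libraries. The 9 oligodendrocyte markers, led by the myelin gene MBP (189610 to 203413 normalized counts), had sums of 261890 to 266324 in saline and 268272 to 270747 in morphine libraries. The astrocyte sum was above the pan-neuronal sum in each of the 6 libraries, although sums of different genes are not shares of cells. This order rests on single genes. Without SLC1A3 the astrocyte sum was 183019 to 185479 in morphine and 194816 to 195898 in saline libraries, below the pan-neuronal sum in each. It was above the pan-neuronal sum without SNAP25 (164666 to 167632 and 190583 to 193401). Of 7 microglia markers 4 rose and 2 fell, with sums of 5342 to 5681 in saline and 7758 to 8315 in morphine libraries. None of the pan-neuronal, astrocyte and microglia markers was at 0 in any library. There were 0 rises and 3 falls among 10 excitatory neuron markers, 3 and 1 among 11 inhibitory, 4 and 3 among 9 oligodendrocyte, 4 and 0 among 6 oligodendrocyte precursor, 5 and 4 among 12 endothelial and mural, and 1 and 1 among 3 blood cell markers. Marker levels thus moved in both directions within most lists, and their part in the results below was not tested. Calls (limma adjusted p under 0.05) covered 71.4% of pan-neuronal, 72.7% of astrocyte, 85.7% of microglia and 77.8% of oligodendrocyte markers. Shares were 66.7% for oligodendrocyte precursor, 75.0% for endothelial and mural, 66.7% for blood cell, 36.4% for inhibitory and 30.0% for excitatory neuron markers. The share over all genes tested was 27.9%. In such bulk libraries fewer cells of a type and less RNA per cell cannot be told apart.

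Among the 57 genes, UQCRH of complex III and COX7A2 of complex IV had the largest rises, and NDUFA5 and the assembly factor NDUFAF4 of complex I had the largest falls. The other calls were falls of NDUFB5, NDUFB9, NDUFAF1, UQCRB, COX6C, ATP5F1A and ATP5F1B and a rise of NDUFS8. Rises and falls are differences with an adjusted p under 0.05 in limma on log2(normalized count + 1), with Benjamini-Hochberg adjustment across the 16595 genes tested. By this rule 3 members rose and 9 fell, 21.1% of the 57. Over all genes tested 27.9% were called, 12.9% higher and 15.0% lower. The share of members that fell, 15.8%, was near that background and the share that rose, 5.26%, was below it, so the counts do not set these genes apart as a group. Tests on recovered reads called 19 members in edgeR (33.3%, where 34.0% of all genes were called) and 22 in DESeq2 (38.6%, where 36.8% were called). Of the 12 genes called in limma, 11 were also called by edgeR and 11 by DESeq2. In the 6 limma fits that left out 1 library in turn, 2 members rose and 3 to 6 fell. Calls were lost over all genes too: 15.3% to 19.2% were called in these fits, beside 27.9% with all 6 libraries.

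Differences were small across the pathway. The median log2 fold change of the 57 genes was -0.09, beside 0.01 over all genes tested, and 38 of 57 (66.7%) had a value below 0, beside 49.4% of all genes. The groups did not overlap for 30 members (52.6%), beside 48.7% of all genes tested and 60.4% of the genes of like abundance, those with means from 540 to 10242 normalized counts. The 3 morphine values lay below the 3 saline values for 23 members (40.4%, against 24.6% of all genes tested and 31.5% of those of like abundance) and above them for 7 members (12.3%, against 24.1% and 28.9%). For 46 members (80.7%) the 95% confidence interval of the difference stayed within 1.5 fold in either direction, and for 4 the estimate passed 1.5 fold. The genes of like abundance had intervals that narrow in 73.3% of cases and were called in 36.2% by limma, 46.8% by edgeR and 50.8% by DESeq2, shares above those of the members. Members also varied little within groups, with a median SD of 0.0688 on the log2 scale beside 0.0833 for those genes.

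**Figure D1:**
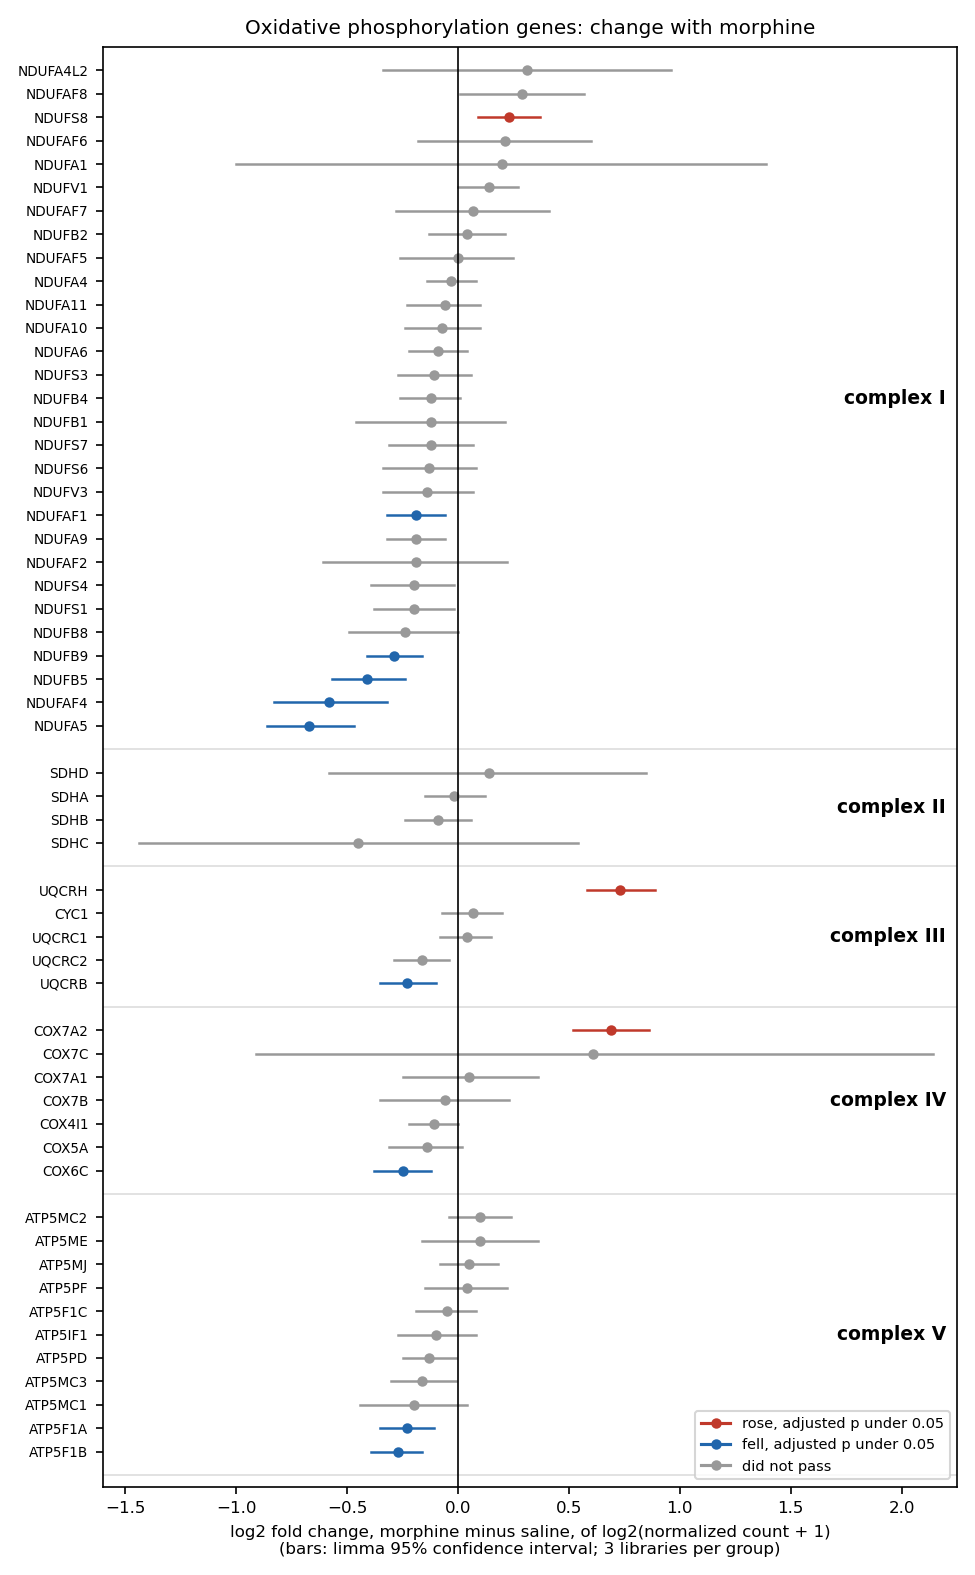
Log2 fold change of the genes of each complex, 1 of the 57 left out, morphine minus saline (x axis), with the limma 95% confidence interval; red points rose, blue points fell and grey points did not pass at an adjusted p under 0.05. Most points lie slightly left of 0, and UQCRH (0.73) and COX7A2 (0.69) stand on the right with narrow intervals.

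Complex I, the NADH dehydrogenase, is the entry point for most electrons and the largest of the complexes. Of its 30 genes 1 rose and 5 fell, 20.0% called, below the 27.9% of all genes tested. The summed level of all 30 was 114018, 110148 and 111453 normalized counts in saline libraries 1, 2 and 3. It was 105108, 104664 and 103047 in morphine libraries 1, 2 and 3, which is 6.8% lower on average and without overlap. Such a sum is carried by the most abundant genes and is given as a description. NDUFA4 (mean 18685 with morphine, 19066 with saline) and NDUFA4L2 are counted here by symbol, and not with complex IV.

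The core subunits carry the flavin, the iron-sulfur clusters and the catalytic steps of complex I. Of the 6 measured, 1 rose and 0 fell (16.7% called, beside 27.9% of all genes tested), with 2 at an unadjusted p under 0.05. NDUFS8 (ENSMMUG00000023189), which binds iron-sulfur clusters in the arm that leads to ubiquinone, had 3027, 3033 and 3232 normalized counts in morphine libraries and 2557, 2689 and 2671 in saline libraries. All morphine values were above all saline values (log2 fold change 0.23 ± 0.055, SE; limma adjusted p = 0.0339). NDUFV1, the subunit that binds NADH and flavin, had 5910, 6274 and 6065 normalized counts with morphine and 5709, 5554 and 5341 with saline. Its groups did not overlap either, but it did not pass in limma (0.14 ± 0.0544, adjusted p = 0.122), while edgeR on the recovered reads gave an adjusted p of 0.0382. NDUFS1, the largest core subunit, went the other way, with 1985, 2030 and 2243 normalized counts in morphine and 2297, 2500 and 2374 in saline libraries. It had a limma adjusted p of 0.0971 and an edgeR adjusted p of 0.0466. NDUFS3 and NDUFS7 did not pass, with log2 fold changes of -0.11 and -0.12. The rise of NDUFS8 passed in none of the 6 limma fits that left out 1 library (adjusted p from 0.0724 to 0.0938) and passed in edgeR (adjusted p = 0.00837).

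Accessory subunits surround the core and are needed to build or hold the complex. Of 15 measured, 0 rose and 3 fell, 20.0% called, beside 27.9% of all genes tested. The log2 fold change was below 0 for 13 (86.7%), beside 49.4% of all genes. NDUFA5 (ENSMMUG00000017321), an accessory subunit of the arm that projects into the matrix, had 406, 405.8 and 359.4 normalized counts in morphine and 656.2, 614.4 and 590.6 in saline libraries. The highest morphine value was well under the lowest saline value, and the log2 fold change was -0.67 ± 0.0772 (SE, limma adjusted p = 0.00552). NDUFB5 (ENSMMUG00000009746), a membrane-arm subunit, had 2600, 2378 and 2634 normalized counts with morphine and 3391, 3473 and 3226 with saline, again with no overlap (-0.41 ± 0.0653, limma adjusted p = 0.012). NDUFB9, another membrane-arm subunit, went from 12350 ± 278 normalized counts in saline to 10105 ± 234 in morphine libraries (mean ± SD, n = 3 libraries each). This difference was -0.29 ± 0.0495 on the log2 scale, with a limma adjusted p of 0.0141. Falls of NDUFA5 and NDUFB5 passed in each of the 6 limma fits without 1 library. NDUFB9 passed in 5 of them and had an adjusted p of 0.0502 without morphine replicate 3.

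Among the accessory subunits that did not pass, NDUFA9, NDUFB8, NDUFB4, NDUFS4 and NDUFA6 also had all morphine values below all saline values. NDUFA9 stood at the threshold in limma (-0.19 ± 0.0519, adjusted p = 0.0501) and had an adjusted p of 0.0148 in edgeR. NDUFB8 had 9312, 9215 and 7841 normalized counts with morphine and 11213, 9817 and 10116 with saline, with an adjusted p of 0.122 in limma and 0.0384 in edgeR. NDUFB2 was the 1 well-measured accessory subunit above 0, at 0.04 ± 0.0667. NDUFA4, which carries a complex I symbol but is now regarded as a subunit of complex IV, had 18636, 18562 and 18855 normalized counts in morphine and 19146, 18936 and 19118 in saline libraries. Its values did not overlap, yet the difference was small (-0.03, 95% interval -0.14 to 0.08, limma adjusted p = 0.652). Its paralog NDUFA4L2, a gene known to be induced by low oxygen, varied widely within both groups, from 385.8 to 596.5 normalized counts with morphine and from 293.1 to 500.9 with saline.

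The NDUFAF proteins assist the assembly of complex I and leave the finished enzyme. Of 7 measured, 0 rose and 2 fell (28.6% called, near the 27.9% of all genes tested), with 3 at an unadjusted p under 0.05. NDUFAF4 (ENSMMUG00000018843) had 433.6, 444.8 and 470.8 normalized counts in morphine and 651.2, 765.8 and 607.5 in saline libraries, with no overlap. The difference was -0.58 ± 0.101 on the log2 scale (limma adjusted p = 0.015). It had adjusted p-values of 0.0535 and 0.0541 in the fits without morphine replicate 1 or 2. NDUFAF1 had 902.3, 889.7 and 854.2 normalized counts with morphine and 1007, 985.3 and 1025 with saline (-0.19 ± 0.0502, limma adjusted p = 0.0447). The call of NDUFAF1 was not made by edgeR (adjusted p = 0.0605), by DESeq2 (0.0985) or in any of the 6 fits without 1 library (0.0824 to 0.123). NDUFAF8 had higher values in all morphine libraries, 1057, 928.7 and 1018 normalized counts against 723.3, 808.9 and 925.9, but did not pass (0.29 ± 0.111, limma adjusted p = 0.108). NDUFAF2, NDUFAF5, NDUFAF6 and NDUFAF7 had groups that overlapped.

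Complex II, succinate dehydrogenase, is the membrane-bound enzyme of the tricarboxylic acid cycle. None of its 4 genes passed in limma, with 0 at an unadjusted p under 0.05 and 0 called by edgeR or DESeq2. SDHA, the flavoprotein that oxidizes succinate, had 7647, 7911 and 8016 normalized counts in morphine and 8110, 7639 and 8109 in saline libraries, with a 95% interval from -0.15 to 0.12 on the log2 scale. SDHB, the iron-sulfur subunit, had 4985, 4995 and 4995 normalized counts with morphine and 5660, 5044 and 5250 with saline. The morphine values of SDHB lay just below the saline values, and the interval ran from -0.24 to 0.06. SDHC and SDHD, the membrane anchors, varied so much between libraries that little can be said of their difference. SDHC had 370.9, 688.1 and 420.8 normalized counts with morphine and 500.3, 514.2 and 1060 with saline (interval from -1.44 to 0.54), and SDHD had 343.3, 339.5 and 346.9 against 434.2, 204.5 and 341.7 (interval from -0.58 to 0.85).

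Complex III, the cytochrome bc1 complex, had 1 rise and 1 fall among only 5 genes, 40.0% called, beside 27.9% of all genes tested. UQCRH (ENSMMUG00000002714), the hinge subunit that assists the binding of cytochrome c1 to cytochrome c, had 5551, 5619 and 5319 normalized counts in morphine libraries and 3519, 3191 and 3205 in saline libraries. The lowest morphine value was far above the highest saline value. UQCRH rose 1.66 fold (0.73 ± 0.0627 on the log2 scale, SE, limma adjusted p = 0.00323). UQCRB, a subunit near the ubiquinone site, had 2264, 2232 and 2329 normalized counts with morphine and 2600, 2690 and 2703 with saline. Its groups did not overlap (-0.23 ± 0.0487, limma adjusted p = 0.0252), but it missed the threshold in all 6 fits without 1 library (0.054 to 0.0834), whereas UQCRH passed in all 6.

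The other complex III genes moved little. CYC1, cytochrome c1 itself, had 8358, 8487 and 8048 normalized counts with morphine and 8238, 7732 and 7785 with saline, with groups that overlapped (0.07 ± 0.0541, limma adjusted p = 0.393). The core proteins UQCRC1 and UQCRC2 had log2 fold changes of 0.04 and -0.16. UQCRC2 had a limma adjusted p of 0.0647 and an edgeR adjusted p of 0.0113. The summed level of the 5 genes was 5.8% higher in morphine libraries, and without UQCRH it was 2.1% lower, so the direction of the sum rests on that gene. Without UQCRH the sums were 24809, 25055 and 24675 in morphine and 25832, 25167 and 25124 in saline libraries.

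Complex IV, cytochrome c oxidase, had 1 rise and 1 fall among 7 genes, 28.6% called, near the 27.9% of all genes tested. COX7A2 (ENSMMUG00000043152), the widely expressed isoform of subunit VIIa, had 5351, 5239 and 4801 normalized counts in morphine and 3333, 3067 and 3130 in saline libraries. All morphine values were above all saline values, and COX7A2 rose 1.61 fold (0.69 ± 0.068 on the log2 scale, limma adjusted p = 0.00408, and passed in all 6 fits without 1 library). COX7A1, the isoform of heart and skeletal muscle, had 1788, 1531 and 1512 normalized counts with morphine and 1744, 1356 and 1561 with saline, with overlapping groups and a 95% interval from -0.25 to 0.36. COX6C (ENSMMUG00000000165), a small subunit of the membrane part, had 10345, 10596 and 10134 normalized counts with morphine and 12685, 12296 and 12029 with saline. Its groups did not overlap (-0.25 ± 0.0503, limma adjusted p = 0.0212). In the fits without 1 library COX6C passed only without saline replicate 3 (adjusted p = 0.0477), and the other 5 gave 0.0572 to 0.0693. COX4I1, a subunit through which ATP regulates the enzyme, had 24706, 24645 and 24202 normalized counts in morphine and 26591, 26263 and 26487 in saline libraries. Its values did not overlap, and it had an adjusted p of 0.128 in limma and 0.00483 in edgeR (log2 fold change -0.11 ± 0.0445).

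COX7C, another small subunit of complex IV, was set apart by 1 library. It had 8664, 8150 and 8559 normalized counts with morphine, 9238 and 8599 in saline libraries 1 and 2, and 2131 in saline library 3. Its log2 fold change was 0.61 ± 0.602 (SE) with all libraries, and -0.08 without saline replicate 3 (limma adjusted p = 0.473). This gene and NDUFA1 are described because of the spread of their values. NDUFA1, a small subunit of complex I, had 83.96, 29.05 and 34.59 normalized counts in morphine and 49.34, 26.06 and 43.24 in saline libraries, with morphine library 1 above the others. COX7C, NDUFA1, SDHC, SDHD and NDUFA4L2 were the 5 members with a within-group SD above 0.3 on the log2 scale. Small subunits of these complexes have processed copies elsewhere in primate genomes, and no source used here gives how reads shared with such copies were assigned. The values of COX7C, NDUFA1, SDHC, SDHD, UQCRH, COX7A2 and COX6C are uncertain in that respect, and its part in them was not tested.

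**Figure D2:**
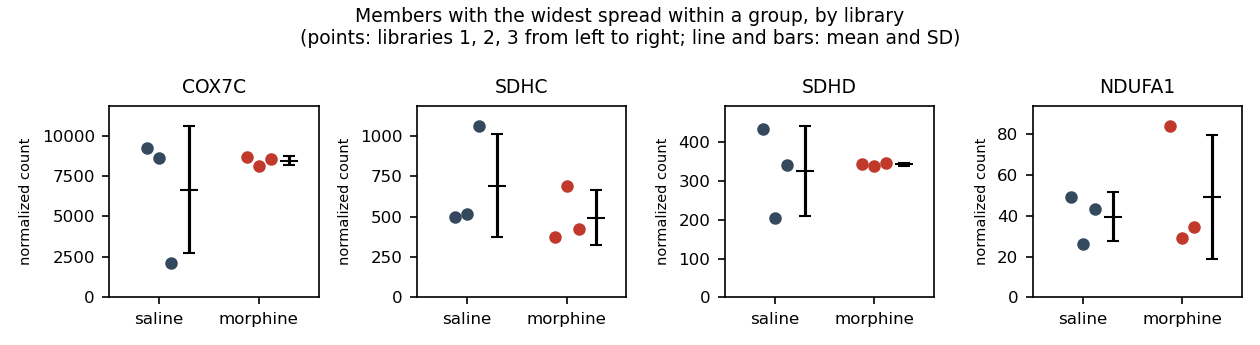
Normalized counts (y axis) of COX7C, SDHC, SDHD and NDUFA1 in each saline (dark) and morphine (red) library, with the mean and SD of 3 libraries. COX7C is low in saline library 3 alone (2131), SDHC is high in the same library (1060), SDHD is low in saline library 2 (204.5) and NDUFA1 is high in morphine library 1 (83.96).

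Complex V, the ATP synthase, has a catalytic F1 head in the matrix and a proton channel, Fo, in the membrane, joined by stalks. Of its 11 genes 0 rose and 2 fell, 18.2% called, below the 27.9% of all genes tested. Both falls were in the F1 head, and 4 genes had an unadjusted p under 0.05. ATP5F1A (ENSMMUG00000003570), the alpha subunit, had 20792, 20298 and 20311 normalized counts in morphine and 23624, 24210 and 24179 in saline libraries. ATP5F1B (ENSMMUG00000001027), the beta subunit that holds the catalytic sites, had 17852, 17928 and 18544 with morphine and 21890, 22125 and 21654 with saline. Neither gene had overlapping groups, and their log2 fold changes were alike, -0.23 ± 0.0457 and -0.27 ± 0.0467 (SE), with limma adjusted p-values of 0.021 and 0.0141. ATP5F1A missed the threshold in all 6 fits without 1 library (0.0519 to 0.0712 after adjustment), and ATP5F1B missed it without morphine replicate 1 (0.0513) or 2 (0.0541). Both passed in edgeR, with adjusted p-values of 0.000218 and 0.000137. ATP5F1C, the rotating gamma subunit, was at 3130 to 3185 normalized counts with morphine and 3171 to 3445 with saline, with overlapping groups. ATP5IF1, the protein that inhibits the enzyme when it runs backwards, had 7266, 7910 and 7900 against 7694, 8603 and 8366 and did not pass (-0.10 ± 0.0701, limma adjusted p = 0.356).

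Of the 7 genes of Fo and the stalks 0 passed in limma, 2 had an unadjusted p under 0.05, and edgeR called 2 falls. ATP5MC1, ATP5MC2 and ATP5MC3 encode the same mature c subunit of the proton-driven ring with different import sequences. ATP5MC1 had 2333, 2341 and 2171 normalized counts in morphine and 2817, 2310 and 2751 in saline libraries, with a saline library inside the morphine range. ATP5MC2 had 8447, 8354 and 8437 with morphine, all above 8239, 7561 and 7713 with saline. ATP5MC3 had 3773, 3875 and 3641 with morphine, all below 4369, 4213 and 4001 with saline. The log2 fold changes of the 3 genes were -0.20, 0.10 and -0.16, and none passed in limma (adjusted p = 0.18, 0.217 and 0.107). In edgeR ATP5MC3 passed (adjusted p = 0.0415), as did the stalk subunit ATP5PD (-0.13 ± 0.0484, adjusted p = 0.0234 in edgeR and 0.107 in limma). ATP5ME, ATP5MJ and ATP5PF had log2 fold changes of 0.10, 0.05 and 0.04 and groups that overlapped. For all 11 genes of complex V the 95% interval stayed within 1.5 fold.

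**Figure D3:**
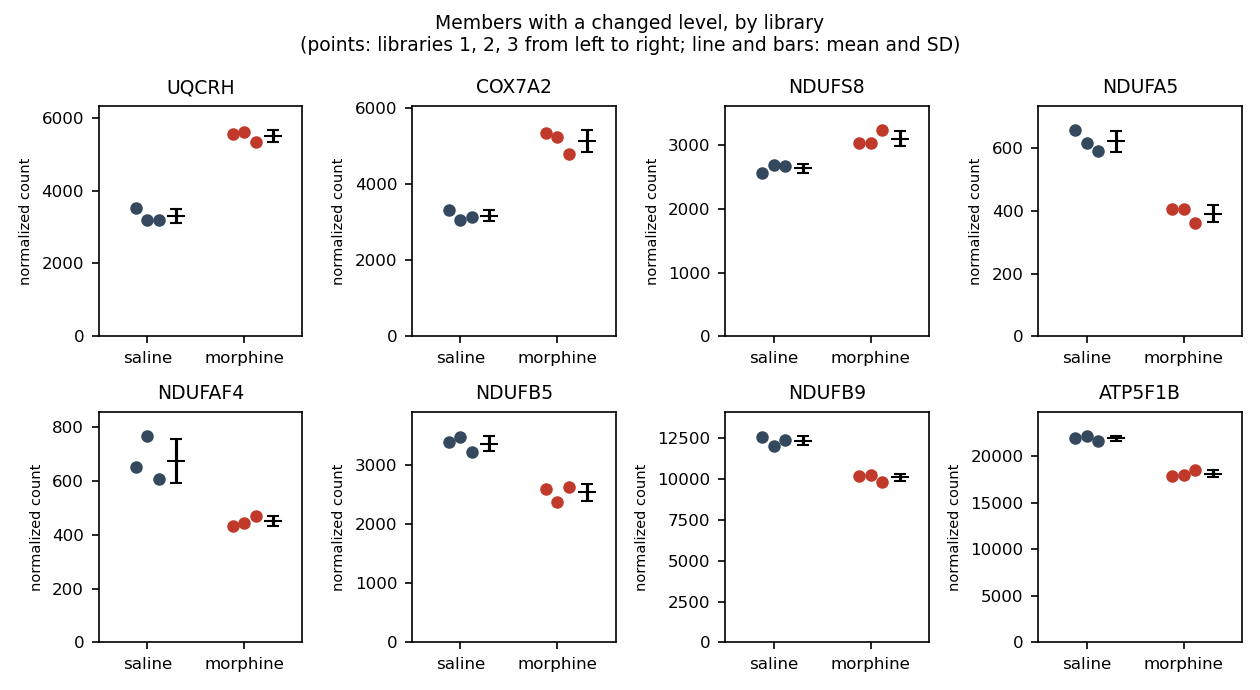
Normalized counts (y axis, from 0) of 8 of the 12 genes that rose or fell, in each saline (dark) and morphine (red) library, with the mean and SD of 3 libraries. The groups do not overlap in any of the 8 panels, and the difference is widest in proportion for UQCRH, COX7A2, NDUFA5 and NDUFAF4.

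Summed by complex, complex V had the widest difference. Its 11 genes summed to 83519, 83776 and 83437 normalized counts in morphine and 92948, 91057 and 91495 in saline libraries, 9.0% lower with no overlap. Most of that difference lies in its most abundant genes, ATP5F1A (mean 20467 with morphine, 24005 with saline) and ATP5F1B (18108 and 21890). A complex V sum without them was not made, so the difference is not shown to extend across the complex. Among the 7 genes of Fo and the stalks 0 were called in limma. Their median log2 fold change was 0.04, with 4 above 0 and 3 below. Complex II sums overlapped and differed by -4.2%. Complex IV sums also overlapped, at -1.3%, with saline library 3 lowest at 52833. Without COX7C the complex IV sums were 49614, 48580 and 47938 in morphine and 52257, 50763 and 50701 in saline libraries, 4.9% lower with no overlap. All 57 genes together were 5.1% lower in morphine libraries, at 286754 to 290610 against 298870 to 312515. The pan-neuronal marker sum was 19.6% lower and the astrocyte marker sum 16.4% lower in the same libraries. Sums were also lower for excitatory neuron (8.5%), endothelial and mural (2.3%) and blood cell markers (8.4%). They were higher for inhibitory neuron (8.1%), oligodendrocyte (1.7%), oligodendrocyte precursor (21.8%) and microglia markers (45.9%). Groups overlapped for the endothelial and mural sums and for the blood cell sums (71 to 84 normalized counts with morphine, 71 to 104 with saline). Single genes weigh on marker sums as well: without SNAP25 the pan-neuronal sum was 13.5% lower, and without SLC1A3 the astrocyte sum was 5.8% lower. The part of cell types in the sums of the complexes was not tested.

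**Figure D4:**
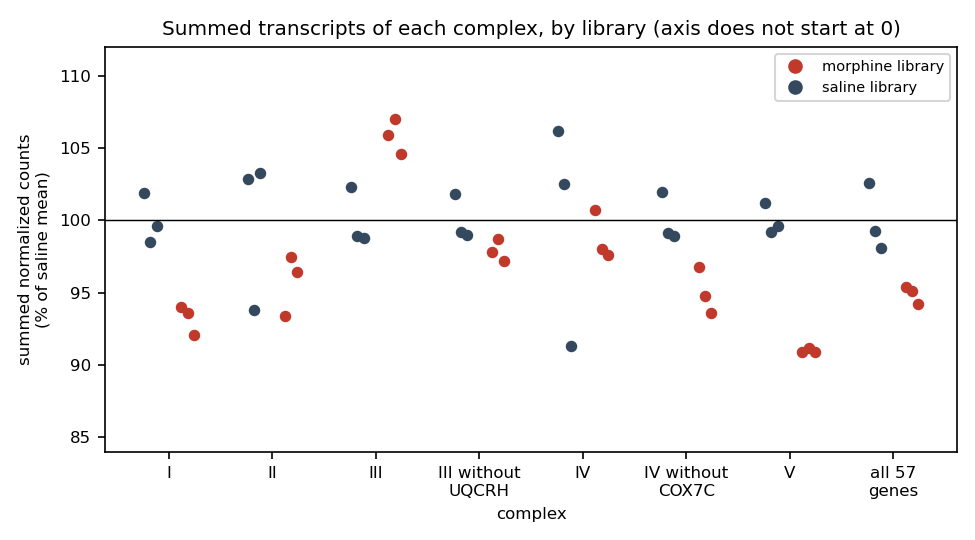
Summed normalized counts of the genes of each complex in each library, as a percentage of the saline mean (y axis, not starting at 0), for saline (dark) and morphine (red) libraries. Morphine libraries lie below saline libraries for complexes I (92.1% to 94.0%) and V (90.9% to 91.2%), and above them for complex III (104.6% to 107.0%) unless UQCRH is left out.

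Other genes of mitochondrial energy metabolism were taken from lists, and the marker sums of neurons, astrocytes and microglia given earlier apply to these libraries too. Regulators of mitochondrial gene expression had 1 rise and 5 falls among 20 tested, 30.0% called, near the 27.9% of all genes tested. PPARGC1A, the coactivator PGC-1alpha that drives mitochondrial gene programmes, had 1375, 1282 and 1323 normalized counts in morphine and 1666, 1695 and 1738 in saline libraries. It fell by 0.36 ± 0.0528 (SE) on the log2 scale (limma adjusted p = 0.00968) and passed in all 6 fits without 1 library. LRPPRC, which stabilizes mitochondrial messenger RNA, had 4281, 4530 and 4814 against 6023, 6324 and 5962, a fall by 0.43 ± 0.065 (limma adjusted p = 0.0104). GABPA, a factor that binds promoters of many respiratory genes, fell by 0.71 ± 0.154 (limma adjusted p = 0.0261), from 311.1 to 458.1 normalized counts in saline to 218.9 to 246.9 in morphine libraries. TFAM, which packages and transcribes mitochondrial DNA, fell by 0.54 ± 0.112 (limma adjusted p = 0.0227), from 326.9 to 345.4 in saline to 207.5 to 271 in morphine libraries. GABPA passed in 2 and TFAM in 1 of the 6 fits without 1 library. GABPA passed only without saline replicate 2 or 3 (the other fits gave adjusted p from 0.0621 to 0.08), and TFAM passed only without morphine replicate 1. POLG2, a subunit of the mitochondrial DNA polymerase, fell by 0.48 and passed only without morphine replicate 2 when 1 library was left out. SLIRP, the partner of LRPPRC, rose by 0.31 and passed only without saline replicate 3. Both were named after their values were seen. NRF1, another factor of respiratory gene promoters, did not pass (0.15 ± 0.104, limma adjusted p = 0.336), and ESRRA was at 2118 to 2155 normalized counts with morphine and 2070 to 2247 with saline.

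Among assembly factors with other names, 0 rose and 2 fell of 9 for complex I, and 1 rose and 2 fell of 24 for complexes II to V. These are 22.2% and 12.5% called, below the 27.9% of all genes tested. TIMMDC1, a complex I assembly factor, had 1309, 1371 and 1416 normalized counts in morphine and 1771, 1730 and 1681 in saline libraries (-0.34 ± 0.0554, limma adjusted p = 0.0126, passed in all 6 fits without 1 library). TMEM126B, of the same assembly step, fell by 0.34 ± 0.0728 (limma adjusted p = 0.0262), but passed only without saline replicate 3 when 1 library was left out. COX20, which assists complex IV assembly, fell by 0.33 ± 0.061 (limma adjusted p = 0.0179). COX20 missed the threshold in 3 of these fits, those without morphine replicate 1 (adjusted p = 0.0581), morphine replicate 2 (0.0626) and saline replicate 1 (0.054). Of the complex II factors SDHAF4 fell by 0.33 and SDHAF1 rose by 0.43 (limma adjusted p = 0.0489 and 0.0472). Both passed only without saline replicate 2 when 1 library was left out, and SDHAF1 did not pass in edgeR (adjusted p = 0.0574).

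Upstream of the chain, 2 of 17 genes of the tricarboxylic acid cycle and pyruvate dehydrogenase rose and 6 fell. That is 47.1% called, beside 27.9% of all genes tested and 36.2% of those with means from 540 to 10242 normalized counts. DLD, the dihydrolipoamide dehydrogenase shared by pyruvate and 2-oxoglutarate dehydrogenase, had 2145, 1885 and 1996 normalized counts in morphine and 3215, 3183 and 2963 in saline libraries. It fell by 0.64 ± 0.0717 on the log2 scale (limma adjusted p = 0.00519). PDHX, a binding protein of the pyruvate dehydrogenase complex, fell by 0.52 ± 0.07 (limma adjusted p = 0.00782), and SUCLA2, a subunit of succinyl-CoA ligase, by 0.50 ± 0.0634 (limma adjusted p = 0.0067). DLD, PDHX and SUCLA2 passed in all 6 fits without 1 library. FH, fumarase, which was named after its values were seen, rose by 0.37 and missed the threshold without morphine replicate 2 (adjusted p = 0.0581) and saline replicate 3 (0.0503). Of 15 identifiers of glycolysis genes 2 rose and 2 fell, 26.7% called. LDHB stands under a high and a low identifier (means of 17989 and 43.62 normalized counts with morphine), and neither passed. PGAM1, PGK1 and PFKL are enzymes of the pathway and HK2 is a hexokinase: PGAM1 fell by 0.38 and PGK1 by 0.33, PFKL rose by 0.27 and HK2 by 0.50. Without 1 library 0 to 2 glycolysis genes rose, and in edgeR 5 rose and 4 fell. PFKL missed the threshold without morphine replicate 1 (adjusted p = 0.0545) and morphine replicate 3 (0.0538). HK2, named after its values were seen, passed in 1 of the 6 fits, the one without saline replicate 2.

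Among 7 genes of ATP export and outer membrane channels only VDAC2, a channel of the outer membrane, passed (fell by 0.24, limma adjusted p = 0.0195), and it did so in 1 of the 6 fits without 1 library. That list thus had 14.3% called, below the 27.9% of all genes tested. Mitochondrial ribosomal proteins, which make the subunits encoded in the organelle, had 8 rises and 7 falls among 45 genes. That is 33.3% called, beside 27.9% of all genes tested and 36.2% of those with means from 540 to 10242 normalized counts. Without 1 library 2 to 5 of the 45 genes rose and 4 to 7 fell. MRPL51 had 1545, 1539 and 1462 normalized counts in morphine and 2748, 2488 and 2420 in saline libraries (fell by 0.75 ± 0.0688, limma adjusted p = 0.00356). MRPL15 fell by 0.65 and MRPL54 rose by 0.48. The median log2 fold change was -0.08 for the tricarboxylic acid cycle list, 0.03 for glycolysis and 0.01 for mitochondrial ribosomal proteins.

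**Figure D5:**
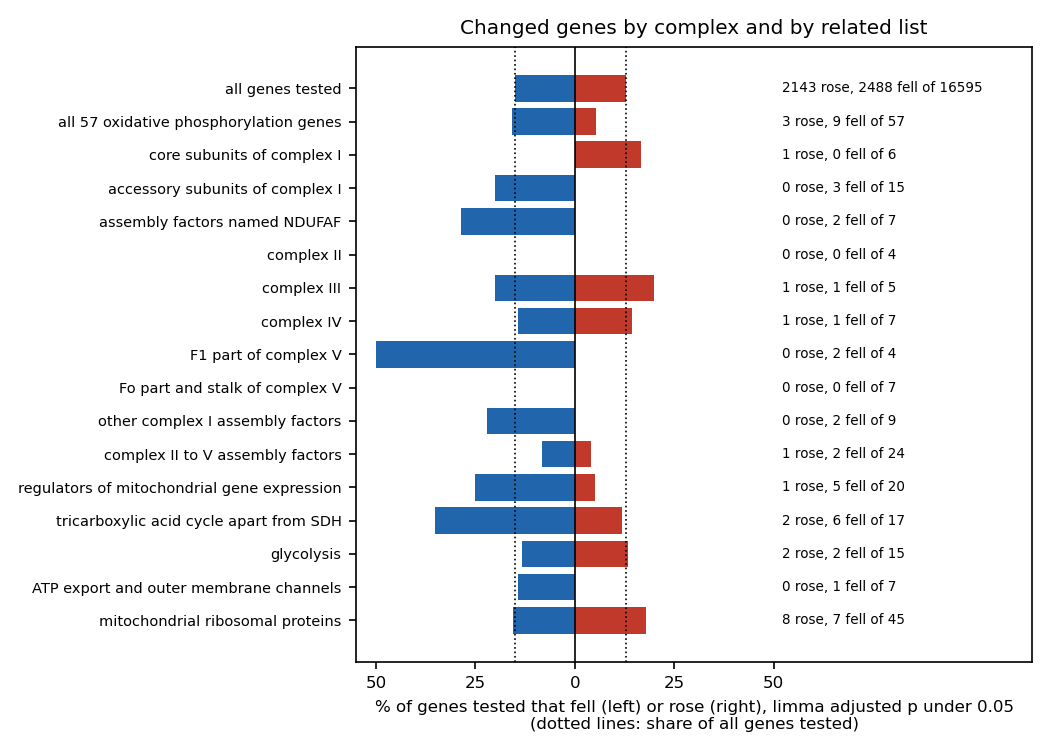
Share of genes tested that rose (right, red) or fell (left, blue) at a limma adjusted p under 0.05 for each group of oxidative phosphorylation genes and each related list, with dotted lines at the shares over all genes tested (12.9% and 15.0%). Rows with few genes give coarse shares, and complex II and the Fo part show no bar because 0 of their genes passed.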

How the data were processed

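Libraries of polyadenylated RNA were grouped by sample title. Bowtie2 2.1.0, StringTie, DESeq2 1.18.1 and hg19 appear in the submitters' processing notes without a role. Gene identifiers are rhesus ones, which leaves the build unsettled, so no coordinates are given. The authors deposited normalized counts, a signal of reads divided by a size factor for each library, per the file headers and values. Their deposited table also has log2 fold changes and errors, a test statistic (a score) and p-values. Reads were recovered by dividing by the value of a single read, and 100% of values came out whole (tolerance 0.001). A symbol was found for 15436 identifiers (66.6%), and the rest entered no list.

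Genes with a mean of at least 10 were tested with limma 3.58.1 (R 4.3.3) on log2(value + 1), two-sided, with group alone as a term and with Benjamini-Hochberg adjustment, after a trial on simulated data. Fold changes on this scale understate the change of low genes. As alternatives, the table was rescaled (TMM, upper quartile), filtered at 50 or not at all, given pseudocounts of 0.5 or 5, read at an adjusted p under 0.01, fitted with a replicate block, refitted without each library, tested with DESeq2 1.42.0 on recovered reads (6105 genes called), and compared with the authors' deposited p-values. Chosen after seeing the data were limma with a trend and the quasi-likelihood test of edgeR 4.0.16 on recovered reads (5636 genes called).

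Members, lists and rules were chosen with earlier results of these data known. By the rule for named genes, library values are given for up to 8 called members of each complex and for the core, complex II, isoform and c-ring genes, and values for up to 3 called genes of each related list with PPARGC1A, NRF1, GABPA, ESRRA and TFAM. Other genes given with library values were chosen after these were seen. ENO2 and ALDOC stand in both a marker list and the glycolysis list. Pairs of libraries within a group differed by more than sampling noise (median chi-square from 2.6 to 3.19 over genes). Library values that the rule for named genes asks for are left out for a few genes, which remain in all counts. Plots were made with matplotlib 3.10.9 and Python 3.11.15. Strand use in counting was not given in the sources used here.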

Additional observations from a re-analysis of the deposited data

How the results depend on the processing

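The rises of UQCRH and COX7A2 and the fall of NDUFA5 passed at an adjusted p under 0.05 in each alternative run, and at 0.01 these 3 were the only members called. Of the 12 called members, 12 were kept with TMM scaling, 11 with upper-quartile scaling, 12 at a minimum mean of 50 and 12 with pseudocounts of 0.5 or 5. There were 7 without a filter, where 23191 genes enter the adjustment, 5 to 8 when 1 library was left out, and 11 each with the trend, edgeR, DESeq2 and the authors' deposited comparison.

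Of all members, 5 rose and 17 fell in DESeq2 and in the authors' deposited comparison, and 15 fell with the trend and in edgeR. Without a filter 5 fell. At an adjusted p under 0.01 there was 1 fall, and without 1 library there were 3 to 6. In complex I rises numbered 2 with the trend and in edgeR, 3 in DESeq2 and in the authors' comparison, and 0 without a filter, at 0.01 and without 1 library, while falls numbered 3 to 4 without 1 library and 1 at 0.01. In complex III falls numbered 2 with a minimum mean of 50, the trend, edgeR, DESeq2 and the authors' comparison, and 0 without a filter, at 0.01 and without 1 library. In complex IV falls numbered 2 with the trend and in edgeR, 3 in DESeq2 and in the authors' comparison, 0 without a filter and at 0.01, and 0 to 1 without 1 library. In complex V falls numbered 4 with the trend and in edgeR, 5 in DESeq2 and in the authors' comparison, 1 without a filter, 0 at 0.01 and 0 to 1 without 1 library. The median log2 fold change of the members was -0.07 with upper-quartile scaling and -0.10 to -0.07 without 1 library. Over all genes, rises numbered 1363 without a filter, 634 at 0.01 and 1072 to 1497 without 1 library, and falls 1630, 898 and 1464 to 1684. Over the related lists there were 14 rises, with 7 lacking a filter, 1 at 0.01, 4 to 11 without 1 library, 25 in DESeq2 and 22 each with the trend, edgeR and the authors' comparison. The 25 falls over these lists became 10 at 0.01 and 14 to 21 without 1 library. Some of these runs had fewer samples or more genes, and the cause of the differences was not tested.

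Replicate numbers are shared between the groups, but same-numbered libraries did not deviate together (correlations of -0.0563, -0.00392 and -0.0284), and no library correlated best with its own number. With the replicate block 3 of the 12 called members were kept, 2 rises and 1 fall. By complex there were then 0 rises and 1 fall in complex I and 0 falls in each of complexes III, IV and V. Over all genes the block left 681 rises and 896 falls, and over the related lists 1 rise and 5 falls.

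Signs turned for differences near 0 or with a wide spread. With upper-quartile scaling the log2 fold change was 0.02 for ESRRA and for NDUFAF5, and 0.01 for SDHA. When 1 library was left out, the log2 fold change ranged from -0.01 to 0.10 for ATP5PF, from -0.04 to 0.14 for COX7A1, from -0.16 to 0.05 for COX7B and from -0.08 (without saline replicate 3) to 0.98 for COX7C. It ranged from -0.26 (without morphine replicate 1) to 0.49 for NDUFA1, from -0.08 to 0.07 for NDUFAF5, from -0.01 to 0.19 for NDUFAF7 and from -0.02 to 0.04 for ESRRA. The range was -0.05 to 0.00 for SDHA and -0.17 (without saline replicate 2) to 0.38 for SDHD.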

Other observations

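COX17 and MRPL39, from the related lists, had values that differed widely within a group, and were picked out after their values were seen. COX17, which carries copper to complex IV, had normalized counts of 5.314, 2.724 and 156.6 in the morphine libraries and of 152.9, 0 and 179.3 in the saline libraries. Where 0 was counted, up to 3 reads are possible from counting error alone. MRPL39, a protein of the mitochondrial ribosome, had 458, 32.68 and 1.922 normalized counts with morphine and 5.92, 12.03 and 13.71 with saline.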
